A study of Mus musculus with 16 samples.

Results

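The genes described here are 53 genes of the cell cycle and of mitosis, picked by symbol. All 53 were found among the 57143 genes measured, and 39 of them passed the filter for testing, a mean of at least 0.5 TPM, transcripts scaled to gene length and library size, over the 16 libraries. The other 14 (Ccnb1, Cdc6, Bub1, Kif4, Kif15, Kif2c, Kif22, Cenpe, Ncapg, Ect2, Hells, Ttk, Nuf2 and Ndc80) were too low to be tested and are described by their counts. RNA came from the left ventricle of male C57BL/6 mice that had undergone abdominal surgery under the inhaled anaesthetic sevoflurane, in 4 groups named for the time after it (0h, 3h, 24h and 7d) with 4 libraries each. The 0h libraries carry the same surgery label as the others, no unoperated group was analysed here, and the mice's ages are not in the labels. Whether each library stands for its own animal is not in the labels, so p-values measure only the spread between these samples, which may be technical.

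A cell enters the cycle when D-type and E-type cyclins release the E2F transcription factors, which switch on the genes that license replication origins and make DNA. Later, B-Myb and FOXM1 act with the MuvB complex on the genes of mitosis: B-type cyclins, Aurora kinases, kinetochore proteins, spindle motors and the cytokinesis machinery. In the adult mouse heart nearly all cardiomyocytes have left the cycle, and the cells that divide are mostly endothelial, fibroblast and immune cells. In RNA of whole ventricle, fewer cycling cells and less cell cycle RNA per cell cannot be told apart.

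Total counts per library ran from 8313655 to 12893551, and no library repeated another. Cell cycle RNA was scarce: its genes summed to 313 ± 16.9 CPM, counts scaled to the library total, at 0h, 293 ± 14.2 at 3h, 239 ± 17.8 at 24h and 335 ± 87.6 at 7d (mean ± SD, n = 4 libraries each). Of these counts 3 genes held 43.7%. Cenpa, the histone H3 variant of centromeres, held 16.9%, Pcna, the sliding clamp of DNA polymerases, 14.8%, and the kinetochore protein gene Cenpf 11.9%. On the TPM scale, which corrects for gene length, Pcna (mean over 16 libraries 54.2 TPM) and Cenpa (25.5 TPM) led, while Top2a averaged 0.98 TPM and Kif11 0.582 TPM. Kif15, the lowest, averaged 0.129 TPM. Many mitotic genes thus rest on few reads in each library, and their values are coarse. Counts of 13 of the genes could mix with those of a gene on the opposite strand that shares exonic bases in the GENCODE M21 annotation, since the strand setting of the counting is not given in the sources used here. Among them are Ccna2, Ccne2, Kif20a, Mcm7 and Ube2c, and 6 genes, among them Ccnb2 and Pcna, have a pseudogene copy elsewhere. Exons of Top2a, Ncapd2 and Mcm7 also hold small RNA genes on the same strand. Sums of marker and brake genes, here and below, are in CPM scaled by TMM (trimmed mean of M-values), while cell cycle sums are scaled to the library total alone. The 11 cardiomyocyte markers summed to between 76795 and 98760 CPM in every library, a sum that does not tell ventricle from atrium. The atrial gene Myl7 measured 146 TPM in 3h replicate 3, against 0.977 to 8.39 TPM in the other 3h libraries. In 24h replicates 1, 2 and 4 it measured 63.8 to 159 TPM.

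At 24h against 0h 5 genes of mitosis and chromosome structure fell by edgeR's quasi-likelihood test, which called no gene of licensing or DNA synthesis. The difference between the roles was not tested. Of the 39 tested genes, 5 fell and 0 rose at an adjusted p under 0.05 by that test: Top2a, Aurkb, Kif11, Kif23 and Ncapd2. Those 5 are 12.8% of the tested genes, where 8.62% of all 16866 tested genes fell and 9.53% rose in the same comparison. At an unadjusted p under 0.05, 18 of the 39 were lower and 0 higher, beside 16.3% and 16.6% of all tested genes. The 24h libraries lay wholly below the 0h libraries, on CPM scaled by TMM (trimmed mean of M-values), for 14 of the 39 (35.9%), against 9.61% of all tested genes. The log2 fold change was negative for 32 of the 39, with a median of -0.66, beside -0.01 over all tested genes.

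Aurkb, the kinase of the chromosomal passenger complex, measured 0.0824, 0.107, 0.299 and 0 TPM in the 24h libraries, against 1.10, 0.768, 0.384 and 1.23 TPM in the 0h libraries. No 24h library reached the lowest 0h library, 0h replicate 3. Its log2 fold change was -2.58 (SE 0.70, edgeR adjusted p = 0.0127), and the values rest on 5 counts in all at 24h and 34 at 0h.

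Kif11 encodes the motor that pushes the spindle poles apart, and Kif23 the motor of the central spindle, where the dividing cell is pinched in. Kif11 measured 0.0976, 0.297, 0.118 and 0.152 TPM at 24h, against 0.936, 1.04, 0.657 and 0.837 TPM at 0h (a log2 fold change of -2.20, SE 0.56, edgeR adjusted p = 0.0101). Kif23 measured 0.246, 0.32, 0.52 and 0.252 TPM at 24h, against 1.42, 1.39, 0.764 and 1.08 TPM at 0h (a log2 fold change of -1.61, SE 0.42, edgeR adjusted p = 0.0108). The groups did not overlap for either motor.

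Top2a makes topoisomerase II alpha, which untangles sister chromatids, and Ncapd2 a subunit of condensin, which compacts chromosomes. Top2a measured 0.216, 0.246, 0.13 and 0.0631 TPM at 24h, against 1.61, 1.04, 1.92 and 1.42 TPM at 0h. It had the largest fall of the 39, a log2 fold change of -2.94 (SE 0.96), and a wide error that left it just past the threshold (edgeR adjusted p = 0.0489). Ncapd2, measured far more deeply, was lower by less: 5.77, 6.05, 7.40 and 4.31 TPM at 24h, against 9.52, 7.94, 9.09 and 10.5 TPM at 0h (a log2 fold change of -0.45, SE 0.16, edgeR adjusted p = 0.0493). Smc4, the condensin core subunit, was at 15.2, 13.3, 13.2 and 12.1 TPM at 24h, against 16.6, 14.5, 15.1 and 15.2 TPM at 0h (a log2 fold change of 0.03, SE 0.12). The TPM values are not TMM-scaled: over all tested genes the median shift of log2(TPM + 1) was -0.15 at 3h, -0.19 at 24h and -0.08 at 7d against 0h. The fold changes come from TMM-scaled counts instead, and their median over all tested genes was -0.01 at 24h against 0h.

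**Figure D1:**
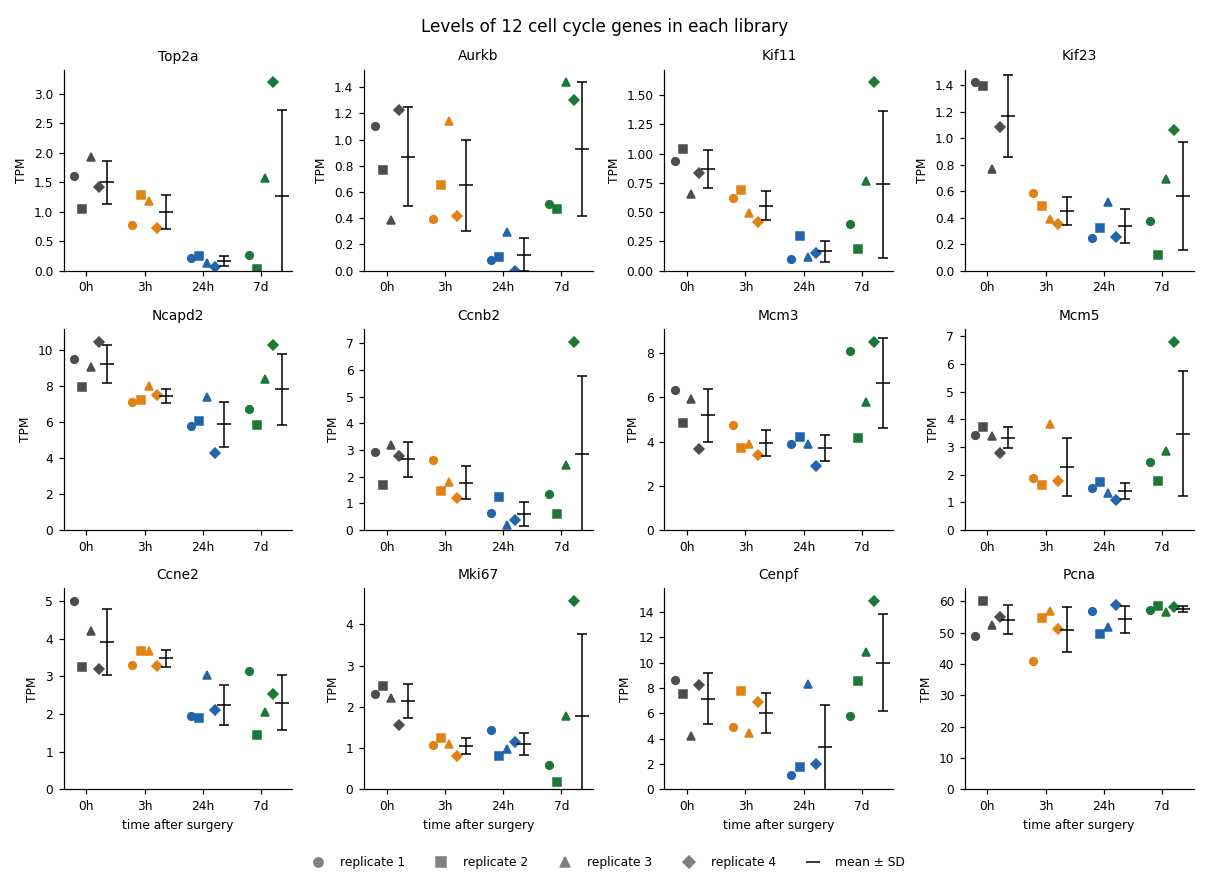
TPM of 12 cell cycle genes in each library (points, 4 replicates per time) with the group mean ± SD beside them, error bars being cut at 0. Top2a, Aurkb, Kif11 and Kif23 lie below all 0h libraries at 24h, the 7d libraries spread widely for most genes, and Pcna stays between 41.0 and 60.1 TPM in all 16 libraries.

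Which libraries were used mattered for the number of calls. It was 2 without 24h replicate 1, 3 without 24h replicate 4 or without 0h replicate 1, 2 or 4, and 8 without 24h replicate 3, all of them lower at 24h, and Kif11 and Kif23 passed in each case. The share of all tested genes called moved with it, from 18.2% with all libraries. That share was 9.61% without 24h replicate 1, 10.6% without 24h replicate 4 and 25.8% without 24h replicate 3. Without 0h replicate 1, 2 or 4 it was 10.6% to 14.3%. Top2a passed in none of the 8 fits that left out a 0h or 24h library, nor with DESeq2 size factors or without the filter. Of those 8 fits Ncapd2 passed in 1, without 24h replicate 3. Atrial markers also differed between these groups: 4 of the 5 tested were higher at 24h, while the sum of all 7 was 177 to 368 CPM at 24h, against 146 to 413 CPM at 0h. Myl7, the atrial myosin light chain, measured 63.8, 126, 6.97 and 159 TPM in the 24h libraries, against 0, 1.10, 9.59 and 0 TPM in the 0h libraries. With the Myl7 level as a covariate, an alternative chosen after the data were seen, 0 of the 39 passed, and the share of all tested genes called was 0.528% in place of 18.2%. The fold changes in that fit were -3.26 for Top2a, -2.62 for Aurkb, -1.92 for Kif11, -0.87 for Kif23 and -0.30 for Ncapd2 on the log2 scale. Their adjusted p ran from 0.22 to 0.548, the highest for each gene among 18 alternatives, while the lowest ran from 0.000336 for Top2a to 0.0191 for Ncapd2.

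Markers of some other cell types also differed at 24h against 0h, when 9.53% of all tested genes rose and 8.62% fell. Of 8 neutrophil markers tested 5 were higher, their sum being 23.9 to 88.2 CPM at 24h against 4.40 to 7.94 CPM at 0h, with the granule genes Elane and Fcnb at 0 in all 16 libraries. Of 11 fibroblast markers 4 were lower and 1 higher, their sum 2868 to 3633 CPM at 24h against 2592 to 3974 CPM at 0h. Mural cell markers summed to 4105 to 4725 CPM at 24h against 3253 to 3791 CPM at 0h, with no overlap, and 1 of the 10 tested was higher. Of 12 endothelial markers 1 was higher and 1 lower, and of the 13 macrophage, 7 lymphocyte and 5 erythroid markers tested 0 passed. Of 4 mesothelial markers 2 were lower, the sum being 4.62 to 9.43 CPM at 24h against 8.07 to 15.6 CPM at 0h. The part of these in the cell cycle results was not tested.

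Summed by role, the genes of 4 roles were lower at 24h without overlap. The 10 mitotic cyclins, kinases and destruction factors summed to 6.98, 7.58, 2.55 and 4.96 CPM in the 24h libraries, against 14.5, 11.2, 13.2 and 13.0 CPM in the 0h libraries, 0.425 of the 0h mean. The 7 spindle genes summed to 4.15, 3.84, 1.79 and 2.28 CPM, against 10.04, 7.33, 9.26 and 7.81 CPM at 0h, a ratio of 0.35. For the 6 cytokinesis genes the sums were 4.86, 6.15, 5.94 and 5.69 CPM at 24h and 14.0, 14.9, 12.1 and 14.9 CPM at 0h, a ratio of 0.405. In each of these 3 roles every 24h library lay below every 0h library. The 16 licensing and DNA synthesis genes summed to 122, 113, 108 and 110 CPM at 24h and 130, 127, 117 and 114 CPM at 0h, a ratio of 0.927, and the groups overlapped. The kinetochore genes summed to 51.6, 62.3, 97.5 and 54.7 CPM at 24h and 97.5, 93.7, 75.3 and 104 CPM at 0h, a ratio of 0.718, and these groups overlapped through 24h replicate 3. For chromosome structure the sums were 51.9, 44.4, 44.3 and 39.4 CPM at 24h and 64.8, 60.1, 63.0 and 62.9 CPM at 0h, a ratio of 0.717 with no overlap. Smc4, Cenpa and Cenpf held many of the counts of these 2 roles. Pcna alone held 1860 of the 4612 counts of licensing and DNA synthesis at 24h and 1652 of 4863 at 0h, so that sum leans on 1 gene. The median log2 fold change of the tested genes was -1.58 for the mitotic cyclins and kinases, -1.43 for the spindle genes, -1.18 for cytokinesis, -0.71 for chromosome structure, -0.32 for the kinetochore and -0.16 for licensing and DNA synthesis.

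**Figure D2:**
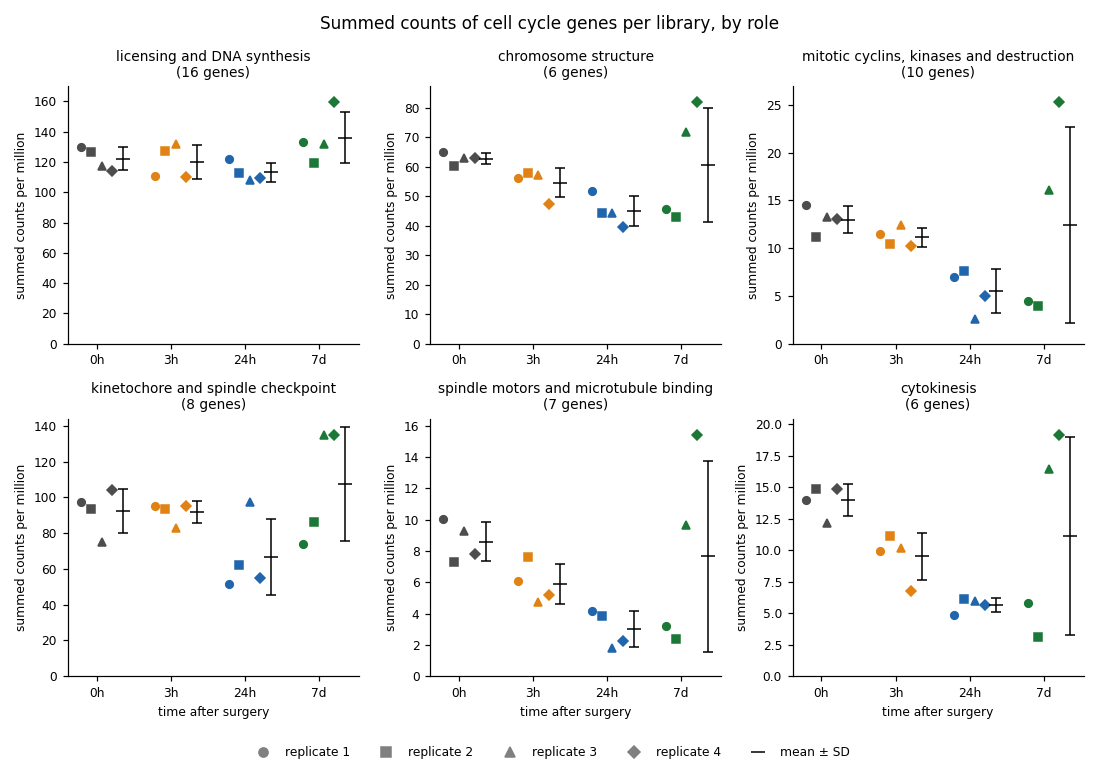
Summed CPM of the cell cycle genes in each library, in 6 panels by role, with the mean ± SD beside the 4 libraries of each time. The 24h libraries lie below the 0h libraries for the mitotic cyclins, the spindle, cytokinesis and chromosome structure, the licensing and kinetochore sums overlap, and the 7d libraries fall far apart from each other.

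Promoters are shown because most mitotic genes hold a short word there, the CHR element, that most genes of DNA synthesis lack. Each is 300 bases from RefSeq on GRCm38.p6, 250 before and 50 after the start of the gene, printed in the direction of transcription. Kif11, Kif23, Top2a and Ccnb2 are mitotic genes that passed the test at 24h against 0h or at 7d against 24h. Mcm5, a subunit of the replicative helicase, passed at 7d against 24h, and Pcna did not pass in any comparison. Capitals mark matches to the CHR element (TTTGAA, or TTCAAA on the other strand), the CCAAT box (CCAAT or ATTGG) and the E2F word, searched as TTTCCCGC, TTTCGCGC, TTTGCCGC and TTTGGCGC on both strands.
Kif11, chr19:37376132-37376431, + strand: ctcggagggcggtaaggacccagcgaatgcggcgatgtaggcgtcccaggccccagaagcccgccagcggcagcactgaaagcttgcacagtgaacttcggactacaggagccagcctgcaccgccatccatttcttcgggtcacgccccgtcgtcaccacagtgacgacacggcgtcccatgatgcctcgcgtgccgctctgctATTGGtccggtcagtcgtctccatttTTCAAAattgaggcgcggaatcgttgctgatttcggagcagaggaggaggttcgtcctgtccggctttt
Kif23, chr9:61946750-61947049, - strand: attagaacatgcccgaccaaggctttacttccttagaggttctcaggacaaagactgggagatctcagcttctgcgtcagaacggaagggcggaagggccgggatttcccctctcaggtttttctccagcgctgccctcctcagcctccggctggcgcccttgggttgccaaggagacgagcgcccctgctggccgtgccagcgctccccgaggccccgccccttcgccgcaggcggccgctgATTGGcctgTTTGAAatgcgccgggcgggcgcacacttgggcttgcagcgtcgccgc
Top2a, chr11:99024140-99024439, - strand: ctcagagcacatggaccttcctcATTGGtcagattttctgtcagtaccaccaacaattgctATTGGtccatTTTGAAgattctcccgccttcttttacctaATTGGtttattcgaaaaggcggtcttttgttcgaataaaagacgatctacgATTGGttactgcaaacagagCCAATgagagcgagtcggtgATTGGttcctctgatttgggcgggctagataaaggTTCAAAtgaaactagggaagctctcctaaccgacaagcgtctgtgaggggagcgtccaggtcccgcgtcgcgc
Ccnb2, chr9:70421505-70421804, - strand: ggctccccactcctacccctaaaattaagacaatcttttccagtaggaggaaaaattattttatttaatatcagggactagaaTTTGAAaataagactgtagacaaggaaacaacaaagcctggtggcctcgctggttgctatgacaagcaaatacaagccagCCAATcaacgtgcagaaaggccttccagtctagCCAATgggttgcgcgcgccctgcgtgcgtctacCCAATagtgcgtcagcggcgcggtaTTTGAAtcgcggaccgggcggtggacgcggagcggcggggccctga
Mcm5, chr8:75109259-75109558, + strand: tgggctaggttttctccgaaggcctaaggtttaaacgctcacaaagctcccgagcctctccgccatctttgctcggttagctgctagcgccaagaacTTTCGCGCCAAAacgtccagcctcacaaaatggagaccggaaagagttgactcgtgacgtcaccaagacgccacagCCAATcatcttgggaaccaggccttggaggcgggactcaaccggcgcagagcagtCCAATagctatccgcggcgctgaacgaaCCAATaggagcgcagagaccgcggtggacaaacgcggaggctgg
Pcna, chr2:132253131-132253430, - strand: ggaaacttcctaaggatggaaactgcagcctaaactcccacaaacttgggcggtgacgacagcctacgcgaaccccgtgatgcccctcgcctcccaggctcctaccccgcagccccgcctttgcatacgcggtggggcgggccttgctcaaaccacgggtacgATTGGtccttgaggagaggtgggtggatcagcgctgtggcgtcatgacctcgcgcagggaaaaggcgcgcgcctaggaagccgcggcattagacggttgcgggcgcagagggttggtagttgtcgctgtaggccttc
The longest run of capitals, in the Mcm5 promoter, is a pair of E2F words that overlap each other on opposite strands.

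A promoter was in the table for 46 of the 53 genes, 49 promoters in all, and the others are Ccna2, Ccne2, Aurkb, Kif20a, Mcm4, Tpx2 and Smc4. The CHR word was in 28 of 34 promoters of mitotic genes (82.4%) and in 1 of 15 promoters of licensing and DNA synthesis genes (6.67%), beside 17.9% of all 32851 promoters of that length. The CCAAT box was in 79.4% of the mitotic and 60% of the licensing promoters, beside 37.4% of all. An E2F word was in 11.8% of the mitotic and 46.7% of the licensing promoters, beside 2.26% of all. These are matches of letters and say nothing of whether a factor was bound.

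Other mitotic genes had negative fold changes at 24h that did not pass. Ccnb2, cyclin B2, measured 0.634, 1.24, 0.192 and 0.371 TPM at 24h, against 2.93, 1.69, 3.20 and 2.79 TPM at 0h, with no overlap (log2 fold change -1.89, SE 0.70, edgeR adjusted p = 0.0622). Tpx2, which activates Aurora A on the spindle, had a log2 fold change of -1.43 (SE 0.68), and Nusap1, a microtubule bundling protein, -1.34 (SE 0.53). Racgap1, the partner of Kif23 in centralspindlin, had -1.18 (SE 0.44), and Kif20a, a motor of the central spindle, -0.63 (SE 0.48). Mki67, the proliferation marker Ki-67, measured 1.45, 0.817, 0.992 and 1.16 TPM at 24h, against 2.31, 2.51, 2.21 and 1.57 TPM at 0h. Its groups did not overlap in TPM but did on TMM-scaled CPM, and its log2 fold change of -0.71 had an SE of 0.62 (edgeR adjusted p = 0.457). Further genes whose 24h libraries all lay below the 0h libraries on TMM-scaled CPM were Prc1, Cdk1, Ccna2, Birc5 and Smc2, picked here after their values were seen. Prc1, which bundles microtubules of the central spindle, came closest to the threshold among them (log2 fold change -2.38, edgeR adjusted p = 0.0502). For Mki67, the spread of its 7d libraries, from 0.183 to 4.56 TPM, enters that error, because all 16 libraries share 1 estimate of the spread.

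The 3 kinetochore genes tested had log2 fold changes from -0.95 to -0.01 at 24h against 0h, and 0 passed. Those below the filter, Bub1, Cenpe, Ttk, Nuf2 and Ndc80, had ratios of CPM from 0.195 to 0.341. Cenpf measured 1.15, 1.80, 8.31 and 1.99 TPM at 24h, against 8.60, 7.56, 4.20 and 8.20 TPM at 0h (a log2 fold change of -0.95, SE 0.51). In 3 of the 24h libraries it was below every 0h library, and 24h replicate 3 was within the 0h range. Without 24h replicate 3 Cenpf passed the test, with a lower level at 24h, where 12.5% of all tested genes were called lower. Cenpa measured 19.6, 24.1, 29.0 and 19.3 TPM at 24h, against 26.9, 26.1, 24.5 and 28.8 TPM at 0h (a log2 fold change of -0.01, SE 0.15). Cdc20, which activates the anaphase-promoting complex, is not a kinetochore gene here but is counted with the mitotic cyclins and kinases. It measured 4.16, 2.54, 1.26 and 3.20 TPM at 24h, against 4.27, 2.94, 2.42 and 2.99 TPM at 0h (a log2 fold change of 0.05, SE 0.37).

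Among the genes of licensing and DNA synthesis, none of the 14 tested passed at 24h against 0h by edgeR, 3 had an unadjusted p under 0.05, and those 3 were Ccne2, Mcm5 and Mcm6, all lower. Mcm5 was called, as lower, by DESeq2, by limma on log2(TPM + 1) and on log2(TPM + 0.1), with edgeR's earlier quasi-dispersions and in a fit of the 2 groups alone. Ccne2 was called as lower by limma on both scales and without 24h replicate 3. Mcm5 measured 1.52, 1.74, 1.32 and 1.07 TPM at 24h, against 3.44, 3.72, 3.40 and 2.80 TPM at 0h, with no overlap (log2 fold change -1.02, SE 0.37, edgeR adjusted p = 0.0583). Mcm7, another helicase subunit, measured 13.8, 8.50, 7.23 and 6.68 TPM at 24h, against 9.75, 8.40, 8.18 and 8.54 TPM at 0h (a log2 fold change of 0.29, SE 0.19). Pcna measured 56.9, 49.7, 51.9 and 58.9 TPM at 24h, against 49.0, 60.1, 52.3 and 55.1 TPM at 0h (a log2 fold change of 0.23, SE 0.12). Subunits of the same helicase thus had differences of opposite sign, neither past the threshold.

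The 14 genes below the filter are most of them mitotic. At 24h against 0h, 13 of the 14 ratios of CPM were under 1, with a median of 0.315. The 95% counting interval lay wholly under 1 for 10 of them, an interval that covers counting error only. Among the 1250 other genes below the filter that had at least 43 counts over all libraries, the fewest of the 14, low values at 24h were also the more frequent: 66.8% of the ratios were under 1, with a median of 0.737, and 26.3% of the intervals lay wholly under 1. In 5 of the 14 every 24h library lay below every 0h library, beside 10.7% of those other genes, and these 5 are named here after their values were seen. Kif15, a spindle motor, had 3 counts in all at 24h and 28 at 0h, and the ratio of 0.104 had an interval of 0.0203 to 0.338. Ncapg, a condensin subunit, had 2 and 23, and the ratio of 0.0846 had an interval of 0.00967 to 0.342. Ndc80 and Nuf2, partners in the complex that grips microtubules at the kinetochore, had 7 and 11 counts at 24h, against 35 and 37 at 0h. Cenpe, a kinetochore motor, had 20 at 24h and 57 at 0h. Cdc6, which loads the helicase onto origins, was the exception, with 40 counts at 24h and 34 at 0h. In a fit with no filter on level, Kif15, Kif2c and Ndc80 passed the threshold at 24h, all lower, where 4.27% of all genes in that fit were called lower.

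**Figure D3:**
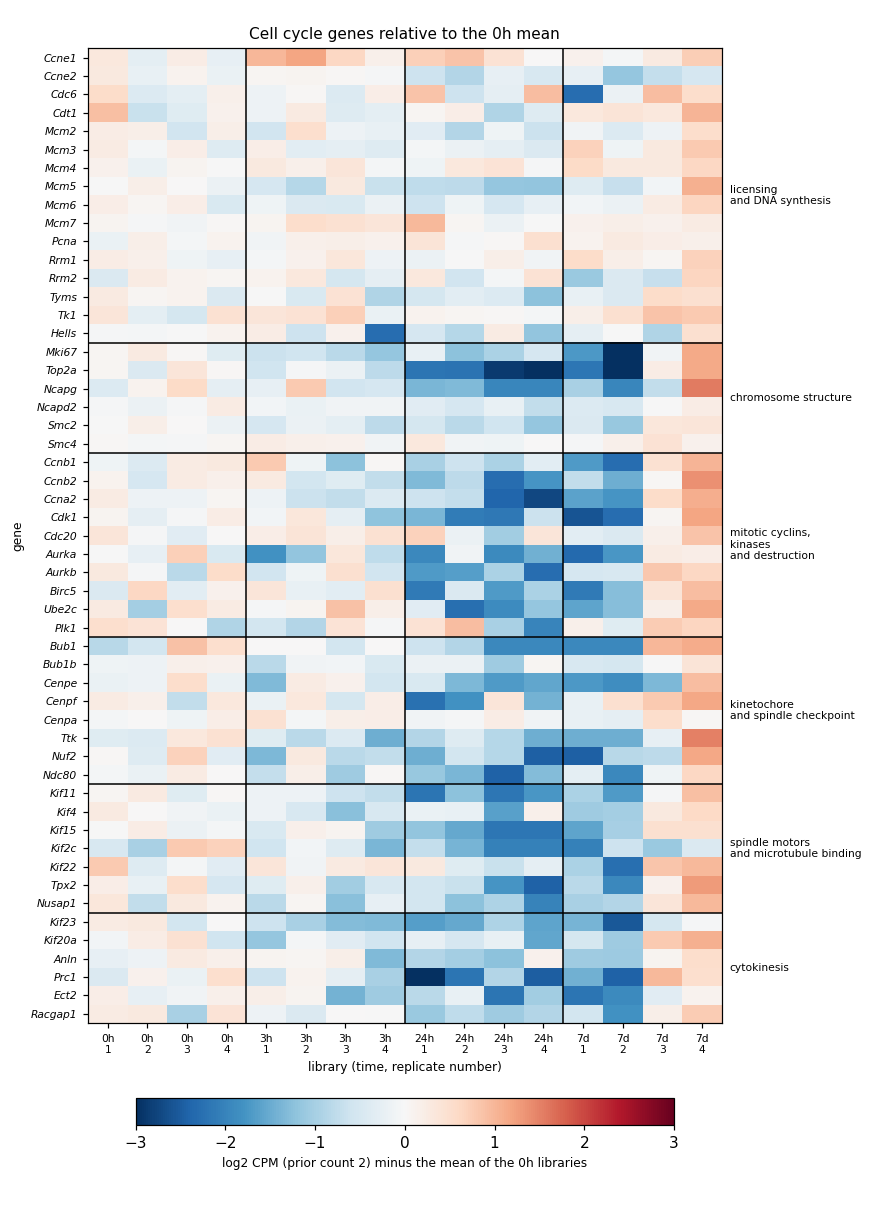
Level of each of the 53 genes (rows, by role) in each of the 16 libraries (columns, by time and replicate), as log2 CPM with a prior count of 2 minus the mean of the 0h libraries. Blue, lower than at 0h, fills most mitotic rows at 24h and in 7d replicates 1 and 2, while 7d replicate 4 is red in most rows.

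From 24h to 7d the difference between the groups ran the other way, though the 7d libraries differed widely from each other, as given below. Of the 39 tested genes 5 rose and 0 fell at 7d against 24h (12.8%, where 3.84% of all tested genes rose): Ccnb2, Aurkb, Kif11, Mcm3 and Mcm5. At an unadjusted p under 0.05, 22 were higher and 0 lower, beside 11.5% and 11.7% of all tested genes. The log2 fold change was positive for 34 of 39, with a median of 0.69, beside 0.00 over all tested genes. In 4 genes (10.3%, against 4.42% of all tested genes) every 7d library was above every 24h library, and these were Aurkb, Mcm5, Cdt1 and Tk1. This comparison shares the 24h libraries with the one above, so the 2 are not independent of each other.

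Aurkb measured 0.505, 0.468, 1.44 and 1.31 TPM at 7d, against 0.0824, 0.107, 0.299 and 0 TPM at 24h (a log2 fold change of 2.74, SE 0.67, edgeR adjusted p = 0.0107). Kif11 measured 0.399, 0.185, 0.768 and 1.61 TPM at 7d, against 0.0976, 0.297, 0.118 and 0.152 TPM at 24h (a log2 fold change of 2.06, SE 0.56, edgeR adjusted p = 0.0237). Ccnb2 measured 1.36, 0.601, 2.44 and 7.06 TPM at 7d, against 0.634, 1.24, 0.192 and 0.371 TPM at 24h (a log2 fold change of 2.12, SE 0.66, edgeR adjusted p = 0.0492). In Kif11 and Ccnb2 the groups overlapped, since 7d replicate 2 was below the highest 24h library.

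The other 2 calls were helicase subunits. Mcm3 measured 8.09, 4.17, 5.78 and 8.52 TPM at 7d, against 3.88, 4.21, 3.91 and 2.88 TPM at 24h (a log2 fold change of 0.70, SE 0.21, edgeR adjusted p = 0.0394). Mcm5 measured 2.46, 1.79, 2.87 and 6.80 TPM at 7d, against 1.52, 1.74, 1.32 and 1.07 TPM at 24h (a log2 fold change of 1.18, SE 0.36, edgeR adjusted p = 0.0426). For Mcm5 even 7d replicate 2, the lowest, was just above the highest 24h library.

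The count of calls at 7d against 24h rested on single libraries. It was 14 without 7d replicate 2, 3 without 24h replicate 2, and 1, Aurkb, without 24h replicate 1, without 24h replicate 4, without 7d replicate 3 or without 7d replicate 4. Without 7d replicate 2 all 14 were higher, beside 4.45% of all tested genes. The share of all tested genes called was 8.09% without 24h replicate 2, 4.7% without 24h replicate 1 and 5% without 24h replicate 4. It was 5.72% without 7d replicate 3 and 5.1% without 7d replicate 4. With the Myl7 covariate 0 passed, and the share of all tested genes called was 0.142% in place of 8.44%. Myl7 was between 0.504 and 0.844 TPM in the 7d libraries, and 4 of the 5 atrial and 2 of the 8 neutrophil markers tested were lower at 7d than at 24h, beside 4.60% of all tested genes.

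**Figure D4:**
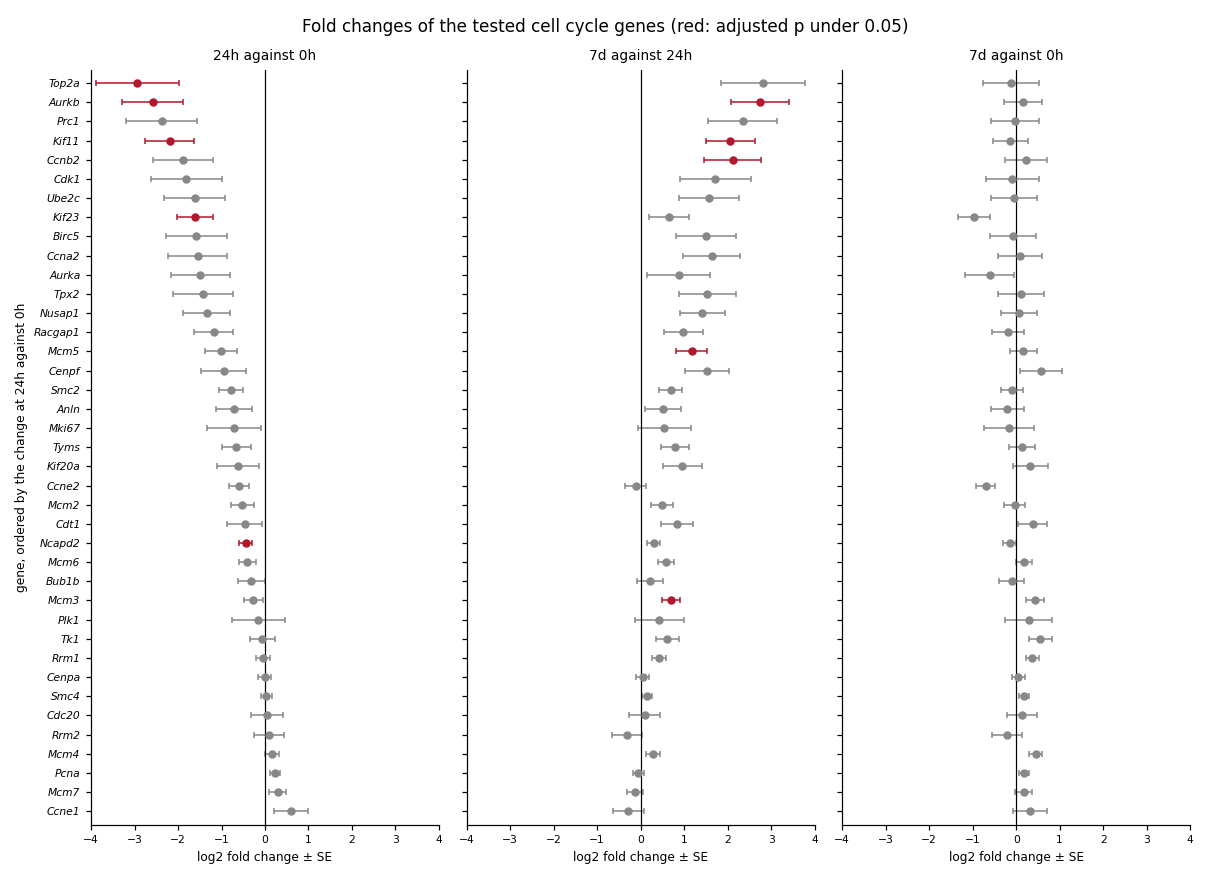
Log2 fold change ± SE of the 39 tested genes at 24h against 0h, 7d against 24h and 7d against 0h, ordered by the first, with genes at an adjusted p under 0.05 in red. Of the 39, 32 lie left of 0 at 24h against 0h, 34 lie right of 0 at 7d against 24h, and at 7d against 0h 22 lie right and 17 left with none in red.

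Set against 0h, the 7d libraries held 0 calls among the 39 by edgeR (1.12% of all tested genes), and 4 genes were higher and 2 lower at an unadjusted p under 0.05, beside 7.42% and 8.60% of all tested genes. DESeq2 called 0 of them. The median log2 fold change was 0.09. Ccne2, cyclin E2, measured 3.15, 1.45, 2.07 and 2.54 TPM at 7d, against 4.997, 3.24, 4.21 and 3.20 TPM at 0h, with no overlap (log2 fold change -0.70, SE 0.22, edgeR adjusted p = 0.13). Kif23 was the other lower gene at an unadjusted p under 0.05 (log2 fold change -0.97, SE 0.36, edgeR adjusted p = 0.192). It passed without 7d replicate 4, where 1.17% of all tested genes were called lower. The 4 higher ones were Mcm3, Mcm4, Rrm1 and Tk1, all of DNA synthesis, with log2 fold changes of 0.37 to 0.55.

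The mean at 7d covers libraries that differed widely. The mitotic cyclins and kinases summed to 4.46, 3.92, 16.1 and 25.3 CPM in 7d replicates 1 to 4, so that the first 2 values lie below every 0h library and the last 2 above every one (0h 11.2 to 14.5 CPM). Spindle genes gave 3.20, 2.35, 9.63 and 15.4 CPM, and cytokinesis genes 5.82, 3.14, 16.4 and 19.2 CPM. Replicates 1 and 2 lay within the 24h range for the mitotic cyclins and kinases (2.55 to 7.58 CPM) and the spindle genes (1.79 to 4.15 CPM). For cytokinesis replicate 1 lay within it and replicate 2 below it (4.86 to 6.15 CPM). Of the 53 genes, 41 were highest in replicate 4 and 10 in replicate 3 among the 7d libraries, while 30 were lowest in replicate 2 and 21 in replicate 1. Top2a measured 0.264, 0.0255, 1.58 and 3.20 TPM there, and Mki67 0.591, 0.183, 1.78 and 4.56 TPM.

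Licensing and DNA synthesis genes spread less at 7d, at 133, 119, 132 and 159 CPM. The median SD of log2 CPM over the 25 tested mitotic genes was 1.10 at 7d, beside 0.34 at 0h, 0.38 at 3h and 0.61 at 24h, and over all tested genes it was 0.24 at 7d. For the 14 tested licensing genes it was 0.35 at 7d and 0.29 at 0h. The 4 libraries had 10316467, 12747734, 11523949 and 12893551 counts in all. Their macrophage markers summed to 551, 526, 561 and 530 CPM, their lymphocyte markers to 22.4, 16.7, 28.0 and 20.9 CPM and their endothelial markers to 1951, 1531, 2151 and 2079 CPM. The brake genes of the cycle summed to 1595, 1551, 2006 and 1951 CPM, and the cardiomyocyte markers to 82850, 80167, 89606 and 98760 CPM. For both, as for the endothelial markers and the mitotic genes, replicates 1 and 2 lay below replicates 3 and 4. The neutrophil markers, at 13.8, 27.3, 7.21 and 11.6 CPM, and the mural markers, at 3857, 4781, 2970 and 3772 CPM, ran the other way, with replicates 1 and 2 above replicates 3 and 4. Atrial markers summed to 182, 874, 277 and 302 CPM and erythroid markers to 39.6, 226, 69.5 and 97.7 CPM, both highest in replicate 2. The macrophage, lymphocyte and fibroblast sums did not divide replicates 1 and 2 from replicates 3 and 4. The part of these values in the spread was not tested.

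At 3h against 0h no cell cycle gene passed by edgeR, beside 5.31% of all tested genes, and DESeq2 called 0. At an unadjusted p under 0.05 there was 1 higher gene, Ccne1, which encodes cyclin E1 (log2 fold change 0.88, SE 0.38, edgeR adjusted p = 0.173), and 1 lower, beside 10.5% and 12.2% of all tested genes. That lower one was Kif23, which measured 0.584, 0.489, 0.387 and 0.352 TPM at 3h, against 1.42, 1.39, 0.764 and 1.08 TPM at 0h. All 3h libraries were below all 0h libraries for it (log2 fold change -1.19, SE 0.40, edgeR adjusted p = 0.0803). Mki67 measured 1.09, 1.25, 1.09 and 0.799 TPM at 3h, against 2.31, 2.51, 2.21 and 1.57 TPM at 0h, also without overlap (log2 fold change -0.84). These 2 of 39 are 5.13%, beside 10.9% of all tested genes whose 3h libraries all lay below 0h. The median log2 fold change of the 39 was -0.25. In a fit of the 0h and 3h libraries alone, Mki67 and Kif23 passed as lower and Mcm7 as higher. That fit called 10.1% of all tested genes lower and 8.82% higher, so these calls are not above that share. Neutrophil markers differed here too: 7 of 8 tested were higher at 3h, beside 2.01% of all tested genes. They summed to 37.9 to 144 CPM against 4.40 to 7.94 CPM at 0h, and their part in these values was not tested.

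In the other pairs of times, no gene passed by edgeR either. At 24h against 3h (7.78% of all tested genes called), 7 genes were lower and 0 higher at an unadjusted p under 0.05, beside 10.7% and 11.6% of all tested genes. For 9 of the 39 (23.1%, against 6.23% of all tested genes) every 24h library lay below every 3h library, and the smallest adjusted p was 0.0559, for Aurkb (log2 fold change -2.30, SE 0.74). DESeq2 called 4, all lower (Top2a, Aurkb, Kif11 and Ube2c), and without 24h replicate 3 edgeR called 2. Those fits called 9.99% and 9.98% of all tested genes. At 7d against 3h (4.87% of all tested genes called), 2 genes were higher and 1 lower at an unadjusted p under 0.05, beside 9.37% and 9.18% of all tested genes. DESeq2 called 0, and the smallest adjusted p was 0.0756, for Ccne2 (log2 fold change -0.71, SE 0.23). Mcm3 passed there as higher without 7d replicate 2, where 2.2% of all tested genes were called higher.

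Tested for any change over the 4 times, 5 of the 39 genes passed by edgeR (20.7% of all tested genes did): Ccne2, Aurkb, Kif11, Kif23 and Mcm3. Ccne2 was 4.997, 3.24, 4.21 and 3.20 TPM at 0h, 3.30, 3.68, 3.67 and 3.28 TPM at 3h, 1.95, 1.90, 3.02 and 2.12 TPM at 24h, and as given above at 7d (edgeR adjusted p = 0.0318). It is the one gene of the 5 whose level at 7d was close to that at 24h, with a log2 fold change of -0.11 (SE 0.24) between them. The count was 11 without 7d replicate 2, 1 without 24h replicate 1, 2 without 24h replicate 4 or without 0h replicate 1, and 3 without 0h replicate 2, 0h replicate 3, 3h replicate 2, 24h replicate 2 or 7d replicate 3. Of all tested genes, 21.4% passed without 7d replicate 2 and 16% without 24h replicate 1. The share was 17.7% without 24h replicate 4 and 14.9% without 0h replicate 1. In the fits that called 3 it was 15.6% to 20.4%.

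The rest of the cell cycle machinery was read from a list of 94 other genes and a list of 23 genes of brakes and quiescence, called brakes here. At 24h against 0h, 8 of the 61 other genes tested fell (13.1%) and 3 rose (4.92%), beside 8.62% and 9.53% of all tested genes. Ccnd1, cyclin D1, which starts the cycle in response to growth signals, measured 18.2, 34.6, 31.3 and 35.1 TPM at 24h, against 93.0, 78.1, 77.0 and 85.2 TPM at 0h. Its groups were far apart (log2 fold change -1.27, SE 0.23, edgeR adjusted p = 0.00208). Ccnd2, cyclin D2, measured 16.6, 32.2, 36.8 and 18.5 TPM at 24h, against 50.4, 44.3, 57.2 and 45.3 TPM at 0h (a log2 fold change of -0.74, SE 0.15, edgeR adjusted p = 0.00204).

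Foxm1, the activator of the mitotic genes, measured 0.295, 0.22, 0.204 and 0.148 TPM at 24h, against 1.17, 0.674, 0.655 and 1.31 TPM at 0h (a log2 fold change of -1.89, SE 0.60, edgeR adjusted p = 0.034). Lmnb1, lamin B1 of the nuclear envelope, measured 1.80, 3.63, 2.28 and 2.11 TPM at 24h, against 7.58, 6.66, 4.97 and 5.44 TPM at 0h (a log2 fold change of -1.15, SE 0.23, edgeR adjusted p = 0.00224). In both, every 24h library was below every 0h library. Arhgap11a, which acts in cytokinesis, fell too (log2 fold change -1.04, SE 0.25, edgeR adjusted p = 0.0066), and so did Pola1, Espl1 and Ncapg2. Securin, the product of Pttg1, holds back sister chromatid separation, and its gene rose: 218, 160, 147 and 145 TPM at 24h, against 103 to 124 TPM in the 0h libraries (log2 fold change 0.79, SE 0.15, edgeR adjusted p = 0.00153). The other genes that rose were Stmn1 and Gins4. E2f1 had a log2 fold change of -0.62 (SE 0.41, edgeR adjusted p = 0.307), and Mybl2, which encodes B-Myb, was below the filter at 0 to 0.415 TPM in all libraries.

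Of the 23 brakes, all tested, 3 rose at 24h against 0h (13%) and 2 fell (8.7%), shares near the 9.53% and 8.62% of all tested genes. Rbl2, which encodes the pocket protein p130 of resting cells, measured 36.1, 31.9, 38.2 and 30.5 TPM at 24h, against 28.9, 25.4, 33.2 and 24.8 TPM at 0h. All 24h libraries were above all 0h libraries on TMM-scaled CPM (log2 fold change 0.51, SE 0.11, edgeR adjusted p = 0.00379). Btg1 and Ccng2 rose as well. The 2 that fell were Lin9 and Lin54, subunits of the MuvB complex. That complex also acts with B-Myb and FOXM1 on the genes of mitosis, so these 2 are not brakes alone. Cdkn1b, the inhibitor p27, did not pass (log2 fold change 0.29, SE 0.13, edgeR adjusted p = 0.141). With the Myl7 covariate, 0 of these 2 lists passed at 24h against 0h.

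The inhibitor p21, made by Cdkn1a, measured 152, 117, 119 and 95.3 TPM at 3h, against 53.9, 42.5, 65.9 and 17.7 TPM at 0h. The groups did not overlap, but the gene did not pass (log2 fold change 1.63, SE 0.58, edgeR adjusted p = 0.12). At 7d it measured 11.6, 36.3, 15.7 and 22.7 TPM and was lower than at 3h (log2 fold change -2.56, SE 0.60, edgeR adjusted p = 0.0301). It was also lower at 7d than at 24h, when it spread over 24.6 to 157 TPM (log2 fold change -2.13, SE 0.60, edgeR adjusted p = 0.0453). Cdkn1c, the inhibitor p57, was the one gene of the 2 lists that rose at 3h against 0h, when 2.01% of all tested genes rose and 3.30% fell. It was at 60.2, 46.4, 59.5 and 47.3 TPM, against 37.2, 45.7, 33.5 and 43.0 TPM at 0h (a log2 fold change of 0.61, SE 0.14, edgeR adjusted p = 0.0142). It did not pass without 0h replicate 1, 0h replicate 3 or 3h replicate 1.

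**Figure D5:**
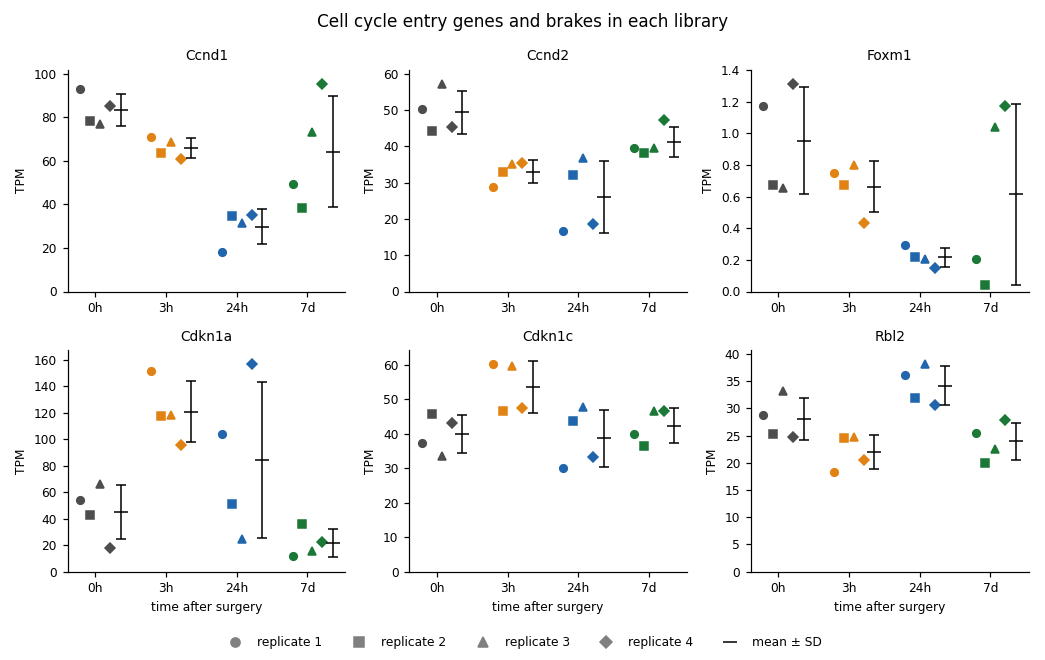
TPM of 3 cell cycle activators (Ccnd1, Ccnd2, Foxm1) and 3 brakes (Cdkn1a, Cdkn1c, Rbl2) in each library, with the mean ± SD beside the 4 libraries of each time. Ccnd1 and Foxm1 have their lowest means at 24h, Cdkn1a is above all 0h libraries at 3h, and Rbl2 has its highest mean at 24h.

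At 7d against 24h, 8 of the 61 other cell cycle genes rose (13.1%) and 1 fell, and 1 of the 23 brakes rose (4.35%) and 4 fell, beside 3.84% and 4.60% of all tested genes. Lmnb1 measured 5.02, 4.89, 7.32 and 7.71 TPM at 7d, above all 24h libraries (log2 fold change 1.25, SE 0.23, edgeR adjusted p = 0.00123). Ccnd1 rose to 49.3, 38.4, 73.4 and 95.5 TPM at 7d (log2 fold change 0.99, SE 0.23, edgeR adjusted p = 0.0151), and Ccnd2 to 39.6, 38.0, 39.4 and 47.3 TPM (log2 fold change 0.57, SE 0.15, edgeR adjusted p = 0.0177). Ncapg2, a condensin II subunit, rose as well (log2 fold change 1.19, SE 0.29, edgeR adjusted p = 0.0128). Sgo2a, a guardian of centromere cohesion, was the one that fell (log2 fold change -0.69, SE 0.16, edgeR adjusted p = 0.00795).

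Rbl2 measured 25.5, 19.9, 22.6 and 27.8 TPM at 7d, below all 24h libraries on TMM-scaled CPM (log2 fold change -0.64, SE 0.11, edgeR adjusted p = 0.000877). Ccng2, an atypical cyclin of resting cells, fell to 14.8, 11.9, 14.3 and 15.2 TPM at 7d, against 34.7, 25.5, 17.6 and 25.6 TPM at 24h (a log2 fold change of -1.03, SE 0.18, edgeR adjusted p = 0.00117). The calls in the 2 lists together numbered 14 with all libraries, 7 without 24h replicate 1, 8 without 24h replicate 4, 9 without 7d replicate 3, 6 without 7d replicate 4 and 0 with the Myl7 covariate. In those fits 8.44%, 4.7%, 5%, 5.72%, 5.1% and 0.142% of all tested genes were called.

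At 24h against 3h, when 4.09% of all tested genes rose and 3.70% fell, 1 of the other genes rose and 3 fell, among them Ccnd1 (log2 fold change -1.12, SE 0.23, edgeR adjusted p = 0.00762) and Lmnb1 (log2 fold change -0.996, SE 0.24, edgeR adjusted p = 0.0121). Of the brakes, 3 rose and 1 fell, Rbl2 (log2 fold change 0.68, SE 0.11, edgeR adjusted p = 0.000702) and Cdkn1b (log2 fold change 0.49, SE 0.14, edgeR adjusted p = 0.0277) being among those that rose and Cdkn1c the one that fell. The 8 calls became 14 without 24h replicate 3, 3 without 24h replicate 1 and 5 without 3h replicate 1. Of all tested genes 9.98%, 4.48% and 4.87% were called in those fits, beside 7.78% with all libraries. At 7d against 0h, 0 genes of either list passed by edgeR, while 7 of the 84 tested were higher and 7 lower at an unadjusted p under 0.05, shares close to the 7.42% and 8.60% of all tested genes, and DESeq2 called 2. At 7d against 3h, Pola1, the catalytic subunit of DNA polymerase alpha, rose (log2 fold change 0.66, SE 0.19, edgeR adjusted p = 0.0428) beside the fall of Cdkn1a, where 1.99% of all tested genes rose and 2.88% fell, and neither call held in every set of libraries that left out 1.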

How the data were processed

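Left ventricular polyA RNA was sequenced from directional libraries, per the labels' protocols. Reads were trimmed with cutadapt and aligned with STAR to mm10, per the submitters' processing notes. The counting tool, its strand setting and all versions were not given in the sources used here. The deposited table holds the authors' raw counts and TPM per gene and library, and 525 rows without a symbol. Its column prefix differs from the titles' prefix, and columns were matched by time and replicate number.

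Counts were tested with edgeR 4.0.16 (R 4.3.3): TMM scaling, genes with a mean of at least 0.5 TPM over 16 libraries, 1 quasi-likelihood fit of the 4 groups with no covariate, and Benjamini-Hochberg adjustment over the 16866 genes tested in each comparison, at 0.05. DESeq2 1.42.0, limma 3.58.1 on log2(TPM + 1) or log2(TPM + 0.1), another filter and scaling, the compared groups alone, each library left out and a Myl7 covariate were alternatives. The fit was tested on simulated data. The intervals (95%, exact) cover counting error only, while the SD of summed counts is the spread between the 4 libraries of a time.

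The genes and lists were chosen with earlier results of these data known. Named genes are those past the threshold in any comparison, Mki67, Top2a and the 2 of highest mean TPM in each role, plus the 6 smallest adjusted p of the other lists and 8 set regulators; any other gene was named after its values were seen.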

Additional observations from a re-analysis of the deposited data

Results flagged for a closer look

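Of 156 sets of 4 libraries of 1 time looked at (named genes, regulators and role sums), 6 held a library far from the other 3, where chance flags about 1 in 20 sets. Mcm5 measured 3.83 TPM in 3h replicate 3, the other 3h libraries lying between 1.61 and 1.88 TPM. Cenpf measured 8.31 TPM in 24h replicate 3, the others lying between 1.15 and 1.99 TPM. Racgap1 measured 0.533 TPM in 0h replicate 3, the others lying between 1.37 and 1.44 TPM. Ccnd2 measured 47.3 TPM in 7d replicate 4, the others lying between 38.0 and 39.6 TPM. Cdkn1b measured 43.9 TPM in 7d replicate 1, the others lying between 36.6 and 37.8 TPM. The kinetochore genes summed to 82.9 CPM in 3h replicate 3, the others lying between 93.7 and 95.3 CPM.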

How the results depend on the processing

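Of 198 alternative fold changes of named cell cycle genes, 130 kept their direction and side of the threshold, 68 kept the direction but no longer passed, and 0 reversed. Of 125 alternative adjusted p for any change, which have no direction and cover only genes that passed in the main fit, 84 stayed past the threshold and 41 did not. The cause of each change below was not tested.

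The count of cell cycle genes called at 24h against 0h, 5, became 3 with DESeq2 size factors, 9 with the DESeq2 test, 10 and 11 with limma on log2(TPM + 1) and log2(TPM + 0.1), 11 with the groups alone, 9 with edgeR's earlier quasi-dispersions, 0 with the Myl7 covariate and 2 to 8 with 1 library left out. Limma's shares of all tested genes at 24h against 0h were 17.2% and 16.8% lower and 3.81% and 3.69% higher, beside 8.62% and 9.53% by edgeR. With 1 library of these groups left out, edgeR called 9.61% to 25.8% of all tested genes at 24h against 0h. The share was 17.9% with DESeq2 size factors, 20.8% with the DESeq2 test and 12.8% with the groups alone. It was 17.4% with the earlier quasi-dispersions and 0.528% with Myl7. At 7d against 24h, 5 became 9 with DESeq2, 1 and 2 with limma, 3 with a replicate block, 1 with the groups alone, 0 with Myl7 and 1 to 14 with 1 library left out. Of all tested genes, the groups alone called 2.2%, and fits with 1 library of these groups left out 4.7% to 14.6%. DESeq2 called 10.7%, limma 6.61% and 6.58%, the replicate block 7.09% and Myl7 0.142%. For any change, 5 became 9, 2 and 3, and 0 under DESeq2, limma and Myl7, and 1 to 11 with 1 library left out. Those fits called 26.5%, 18.1% and 17.3%, 5.57%, and 14.9% to 28.5% of all tested genes, beside 20.7% in the main fit. Where none passed, the groups alone gave 3 at 3h against 0h (18.9% of all tested genes) and 3 at 24h against 3h (4.95%). DESeq2 gave 4 at 24h against 3h (9.99% of all tested genes). Leaving out 1 library gave 0 to 1 at 7d against 0h, 0 to 2 at 24h against 3h and 0 to 1 at 7d against 3h. Those fits called 0.208% to 1.77%, 4.48% to 9.98%, and 2.73% to 4.9% of all tested genes.

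For the other cell cycle genes and brakes together, 1 at 3h against 0h became 2 with no filter, 3 with DESeq2, 10 with the groups alone and 0 to 1 with 1 library left out. The groups alone called 18.9% of all tested genes in that comparison, beside 5.31% with all 4 groups in the fit. The fit with no filter called 3.15% of its genes, DESeq2 8.29%, and fits with 1 library left out 1.77% to 3.51%. At 24h against 0h, 16 became 0 with Myl7 and 11 to 21, where 0.528% and 9.61% to 25.8% of all tested genes were called. At 7d against 0h, 0 became 1 with no filter, 2 with DESeq2, 2 with the groups alone and 0 to 2. In the same order, 0.982%, 2.85%, 2.04% and 0.208% to 1.77% of all genes in those fits were called. At 24h against 3h, 8 became 14 with DESeq2, 4 and 4 with limma, 5 with the groups alone, 3 with Myl7 and 3 to 14. Those fits called 9.99%, 5.57% and 5.38%, 4.95%, 3.27%, and 4.48% to 9.98% of all tested genes. At 7d against 3h, 2 became 1 and 1 with limma, 0 with Myl7 and 0 to 2. There 2.95% and 2.82%, 1.49%, and 2.73% to 4.9% of all tested genes were called. At 7d against 24h, 14 became 8 and 8 with limma, 5 with the groups alone, 0 with Myl7 and 6 to 17. The shares of all tested genes were 6.61% and 6.58%, 2.2%, 0.142%, and 4.7% to 14.6%. For any change, 21 became 3 with Myl7 and 13 to 23, where 5.57% and 14.9% to 28.5% of all tested genes were called.

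With 1 library left out, the median log2 fold change ran from -0.28 to -0.14 at 3h against 0h, -0.79 to -0.61 at 24h against 0h, -0.30 to 0.30 at 7d against 0h, -0.52 to -0.31 at 24h against 3h, -0.14 to 0.50 at 7d against 3h and 0.48 to 0.93 at 7d against 24h. The ratio of summed counts at 3h over 0h, 0.936, was 0.982 after TMM, 0.882 without the 3 genes of most counts and 0.885 in TPM. At 24h over 0h, 0.763 was 0.823 after TMM and 0.701 without those 3.

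Replicate numbers did not pair the samples: same-numbered libraries of different times had correlations of deviations from -0.12 to 0.055, and 0 of 16 correlated best with their own number. With a replicate block the count at 24h against 0h was 5, with Prc1 in place of Ncapd2. Depth limits the mitotic genes most, several resting on under 10 counts per library.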
